A study of Mus musculus with 6 samples.

Results

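The genes described here are 50 mouse genes of the basic leucine zipper (bZIP) family, in 6 groups: AP-1 (11 genes), MAF (6), CREB/ATF (17), C/EBP (6), the NRF and BACH factors (6, called NRF below) and the PAR factors with Nfil3 (4, called PAR). They were chosen by family membership, and their probes were found through the accession that the array files give for each probe. Of the 50 genes, 49 had a probe on the array, with 62 of the 55681 probes. Atf7 was the gene without a matched probe. Fra-1hep mice overexpress Fra-1, the AP-1 subunit encoded by Fosl1, in hepatocytes only and are on the C57BL/6J strain. On 5 two-colour Agilent arrays, total liver RNA of 1 Fra-1hep mouse each (dye Cy5) was hybridised together with pooled liver RNA of 5 C57BL/6J wild-type mice kept on chow (dye Cy3). A further array had the dyes exchanged and held pooled Fra-1hep RNA, labelled with Cy3, and pooled wild-type RNA, labelled with Cy5. Fra-1hep and wild-type mice were both 26 to 28 weeks old and untreated. The labels give neither the promoter that drives Fra-1 nor the mice that formed the Fra-1hep pool, and the wild-type side is 1 pool, so the spread between wild-type mice was not measured.

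bZIP factors bind DNA as dimers: a leucine zipper holds 2 proteins together, and the basic stretch beside it contacts the DNA. The choice of partner sets which sequence is read. FOS and JUN proteins pair into AP-1, which binds the TRE (TGANTCA), while CREB and ATF proteins prefer the CRE (TGACGTCA). Small MAF proteins pair with NRF2 or BACH1 at antioxidant response elements, ATF4 pairs with C/EBP proteins at amino acid response elements, and PAR factors bind D-boxes. In liver these factors are known for roles in injury and regeneration, the acute phase, gluconeogenesis, the unfolded protein response, detoxification and the daily clock.

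Values are log2 ratios of Fra-1hep over wild type, and the sign of the dye-swapped array was changed to match, so a positive value is higher in Fra-1hep. A probe was tested when it was well above background on at least 3 arrays in either RNA, and it was called changed at a Benjamini-Hochberg adjusted p under 0.05 in limma over all 30110 tested probes. The arrays of mice 2 and 3 differed by 1.14 times the noise between replicate spots, against 1.68 to 2.32 times for the other pairs of mice. They were counted as 1 sample, so n is 4 Fra-1hep samples plus the dye-swapped array. In the fit that array weighs as much as all mouse arrays together, and its own error is not estimated. Every mouse array held Fra-1hep RNA in Cy5, so a fit on the mouse arrays alone cannot tell genotype from dye. Between 48.5 and 58.9% of probes were well above background in Fra-1hep RNA and 45.0 to 50.7% in wild-type RNA. Of 12 tested hepatocyte marker probes, 2 were lower and none higher in Fra-1hep, with a median log2 ratio of -0.01. That median joins arrays of opposite sign: the list's medians were 0.17, 0.34, 0.34 and 0.05 in the 4 Fra-1hep samples and -0.32 in the Fra-1hep pool.

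Fosl1 itself could not be followed. Its only probe stayed too dim in both RNAs to count as well above background. Its median spot signal was 63.5, 73, 72, 85 and 66 in Fra-1hep mice 1 to 5 and 40.5 in the Fra-1hep pool, against 34, 37, 48, 44 and 41 in wild-type RNA on those 5 arrays and 71 where the wild-type pool was in Cy5. The brighter channel was Cy5 on all 6 arrays, whichever RNA it held. The sources used here do not say where in the transcript the probe lies, so it checks neither the labels nor the transgene.

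In Fra-1hep liver, 4 bZIP genes were higher (Mafk, Creb3l2, Hlf and Creb5) and 7 were lower (Batf, Batf2, Batf3, Atf3, Bach2, Maff and Mafg). Another 35 of the 46 genes tested had no probe past the threshold. By probe, 12 of 56 changed (4 higher, 8 lower), or 21.4%, against 11.6% of all 30110 tested probes (5.52% higher and 6.04% lower) and 14.9% of the 18021 tested probes with a gene symbol. By gene, 11 of 46 (23.9%) had a changed probe, against 17% of the 13955 tested genes with a symbol. Fitted member ratios ran from -0.62 to 0.56 with a median of -0.04, against 0.01 for all tested probes. The largest fitted drop, of Batf3, left 0.652 times the wild-type level, and the largest fitted rise, of Mafk, was 1.48-fold. Of the 12 changed probes, 11 had the same direction on all 6 arrays, and Creb5 was the exception. Over all tested probes, 3227 of the 3480 changed ones also had 1 direction on all 6 arrays. The calls used these same arrays, so a shared direction is no separate support. Without mouse 1, and likewise without mouse 4, 7 of the 12 passed.

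**Figure D1:**
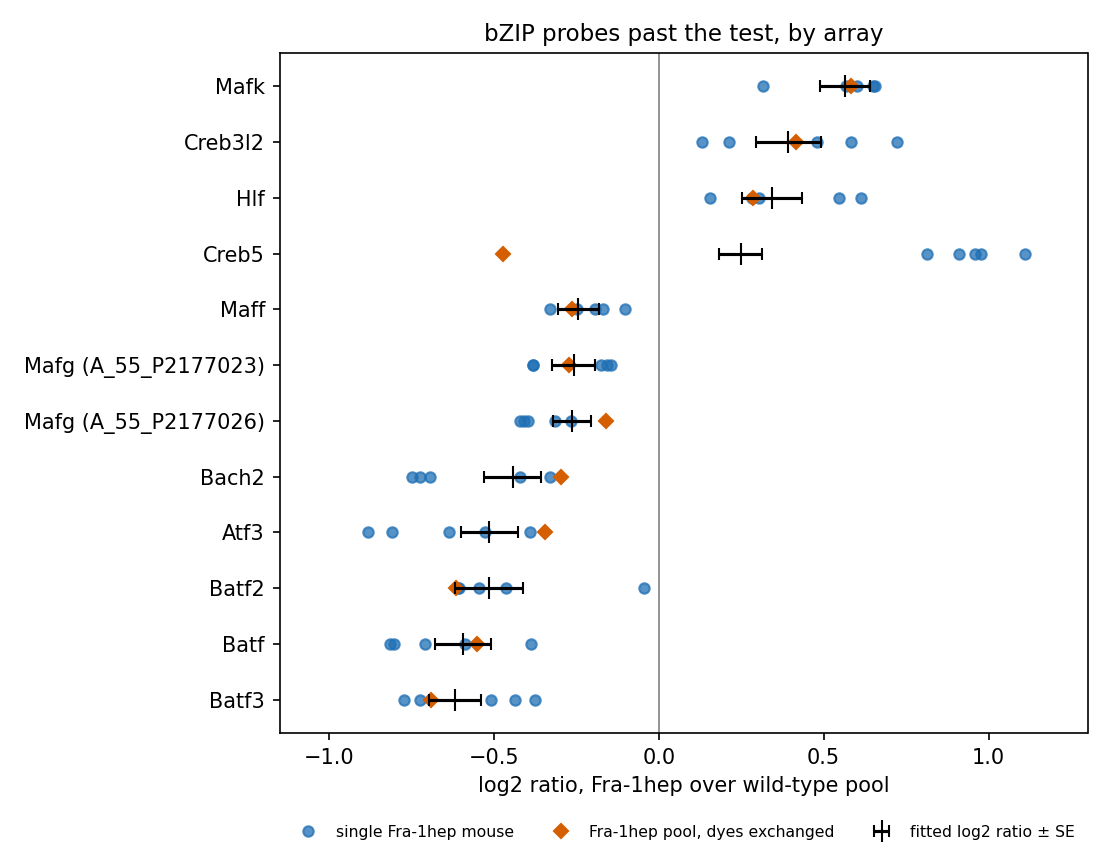
Log2 ratio of Fra-1hep over wild type (horizontal axis) for each changed bZIP probe (rows). Circles are the 5 single Fra-1hep mice, the diamond is the Fra-1hep pool on the dye-swapped array, and the black mark with bars is the fitted ratio with its SE. All 6 arrays lie on 1 side of 0 for every probe but Creb5, whose mice lie between 0.81 and 1.11 and whose pool is at -0.47.

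The AP-1 genes bear on whether the dimer partners and relatives of Fra-1 differ in RNA level when hepatocytes overexpress it. None of the JUN genes, which encode the partners Fra-1 needs to bind DNA, passed the test. Jun had log2 ratios of -0.16, 0.36, 0.46, -0.05 and -0.21 in Fra-1hep mice 1 to 5 and -0.01 in the pool, so mice 2 and 3 were high and the other mice below 0 (fitted -0.01, SE 0.11, adjusted p = 0.975). Jund was also high in mice 2 and 3 alone, with -0.10, 0.46, 0.33, -0.05 and 0.02 in the mice and 0.03 in the pool (fitted 0.05, adjusted p = 0.796). Junb was below 0 in every mouse, at -0.50, -0.23, -0.32, -0.57 and -0.28, but at 0.02 in the pool. Its fitted ratio was -0.19 (SE 0.08, adjusted p = 0.162), and it passed when the mouse arrays were taken alone (-0.41, adjusted p = 0.00422).

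The FOS genes also stayed short of the threshold. Fos had -0.40, -0.03, -0.01, -0.24 and 0.14 in the mice and -0.28 in the pool (fitted -0.21, SE 0.10, adjusted p = 0.24). Fosb lay between -0.10 and 0.21 on all arrays. Fosl2, which encodes Fra-2, the nearest relative of Fra-1, had -0.18, 0.03, -0.04, 0.35 and -0.08 in the mice and 0.53 in the pool (fitted 0.28, SE 0.10, adjusted p = 0.113); the pool was the highest array, and the 4 Fra-1hep samples averaged 0.02. A second Fosl2 probe was too dim for a value. Jdp2, a repressor that pairs with JUN proteins, had a fitted ratio of 0.19 (adjusted p = 0.191).

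All 3 Batf genes fell. BATF proteins pair with JUN proteins but lack a domain that activates transcription. They are best known from blood cells: BATF in activated T and B lymphocytes, BATF2 in macrophages answering interferon, and BATF3 in the dendritic cells that cross-present antigen. Batf had -0.81, -0.80, -0.71, -0.59 and -0.39 in Fra-1hep mice 1 to 5 and -0.55 in the pool. Every array was below 0, and mouse 5 was the nearest to it. The 4 counted samples averaged -0.64 ± 0.19 (SD, n = 4). The fitted ratio was -0.59 (SE 0.09, limma adjusted p = 0.00408), or 0.663 times the wild-type level. Batf3 had -0.72, -0.51, -0.77, -0.38 and -0.44 in the mice and -0.69 in the pool, with no array above -0.38 and a mean of -0.54 ± 0.16 over the counted samples (SD, n = 4). Its fitted ratio was -0.62 (SE 0.08, limma adjusted p = 0.00236). Batf2 had -0.54, -0.61, -0.61, -0.46 and -0.04 in the mice and -0.62 in the pool, so 5 arrays were low together and mouse 5 was close to wild type (fitted -0.52, SE 0.10, limma adjusted p = 0.016). These 3 genes passed under each of 19 other settings of the processing. With the scanner software's own processed signals the Batf ratio was -0.94 and the Batf2 ratio -0.78.

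Because the Batf genes are known from blood cells, markers of those cells are given beside them. Of 15 macrophage and Kupffer cell marker probes, 14 fell, with a median of -0.58, and their summed signal was 46050 to 74814 in Fra-1hep RNA against 90117 to 102492 in wild-type RNA. Of 15 T and NK cell probes, 8 fell (median -0.23), with summed signals of 6502 to 10098 in Fra-1hep and 7147 to 10876 in wild type. Klrb1c and Ncr1 never rose well above background. Of 5 dendritic cell probes 1 fell (Ccr7), with sums of 17622 to 41090 in Fra-1hep and 17647 to 30774 in wild type. Clec9a, which marks the dendritic cells that need BATF3, had a ratio of -0.07 (adjusted p = 0.53), and Xcr1 was not above background. Neutrophil markers moved the other way, with 10 of 12 probes higher and a median of 2.29. In whole liver, fewer cells of a type and less RNA per cell cannot be told apart, and the part of these cells in the Batf values was not tested.

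Small MAF proteins have no activation domain and serve as obligate partners of NRF and BACH factors. In Fra-1hep liver 1 of them, Mafk, was higher, while Maff and Mafg were lower. Mafk had 0.65, 0.66, 0.57, 0.60 and 0.32 in Fra-1hep mice 1 to 5 and 0.58 in the pool. Mouse 5 had the smallest rise, at 0.32, and the other 5 arrays lay within 0.57 to 0.66. The counted samples averaged 0.54 ± 0.15 (SD, n = 4). The fitted rise was 0.56 (SE 0.08, limma adjusted p = 0.00304), or 1.48-fold, and it passed under all 19 other settings. Mafg was read by 3 probes. The first (A_55_P2177023) had -0.17, -0.15, -0.38, -0.38 and -0.16 in the mice and -0.27 in the pool (fitted -0.26, SE 0.07, limma adjusted p = 0.0415). The second (A_55_P2177026) had -0.41, -0.27, -0.42, -0.40 and -0.31 in the mice and -0.16 in the pool (fitted -0.26, SE 0.06, limma adjusted p = 0.0236). The third (A_66_P116632) was below 0 on all arrays too, with a fitted ratio of -0.23 that missed the threshold (adjusted p = 0.0728) and passed on the mouse arrays alone (-0.21, adjusted p = 0.0421). All 3 Mafg probes were thus below 0 on every array. They read the same RNA and are not separate replicates. Maff had -0.25, -0.19, -0.10, -0.33 and -0.17 in the mice and -0.26 in the pool (fitted -0.24, SE 0.06, limma adjusted p = 0.0424).

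The calls of Maff and Mafg changed with the normalisation. With arrays centred on their median instead of loess, Maff was at -0.18 (adjusted p = 0.143) and both changed Mafg probes were at -0.12 (highest adjusted p = 0.318). Leaving out mouse 1, 2, 4 or 5 ended the call of Maff (adjusted p from 0.0574 to 0.0797). Leaving out mouse 1, 3 or 4 ended that of the first Mafg probe (0.0514 to 0.0717), and leaving out mouse 4 that of the second (0.0512). The genes of the larger MAF proteins did not pass: Maf, which serves lens and macrophage genes, had -0.10 (adjusted p = 0.422), and Mafa, known from pancreatic beta cells, 0.04 (adjusted p = 0.821). Nrl, a factor of rod photoreceptors, was not above background with either probe.

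The promoters of Mafk and Mafg are shown because these 2 partners of NRF and BACH factors moved in opposite directions while carrying the same 2 motifs. Each line gives the 250 bases before the RefSeq start (GRCm38.p6), 5′ to 3′ on the gene's strand, with motif matches in capitals. In Mafk (chr5:139791286-139791535, plus strand) the capitals mark an E-box (CACGTG) at -208 to -203 and an antioxidant response element core (TGACNNNGC, on the opposite strand) at -13 to -5. In Mafg (chr11:120633548-120633797, minus strand) they mark the same core, also on the opposite strand, at -222 to -214 and an E-box at -41 to -36.
Mafk: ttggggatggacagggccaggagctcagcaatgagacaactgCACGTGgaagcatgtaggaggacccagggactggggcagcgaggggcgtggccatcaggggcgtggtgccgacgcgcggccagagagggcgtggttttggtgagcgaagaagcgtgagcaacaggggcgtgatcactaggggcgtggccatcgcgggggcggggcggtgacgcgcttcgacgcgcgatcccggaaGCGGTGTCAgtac
Mafg: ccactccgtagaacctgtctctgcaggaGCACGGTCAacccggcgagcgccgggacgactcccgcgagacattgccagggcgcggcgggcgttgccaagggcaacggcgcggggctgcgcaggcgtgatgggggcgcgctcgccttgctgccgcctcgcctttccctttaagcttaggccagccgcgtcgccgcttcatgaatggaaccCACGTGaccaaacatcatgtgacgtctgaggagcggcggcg
The core lay near the start in Mafk and far from it in Mafg. Maff also held both motifs, in promoters of different starts. Atf1 and Atf6b held both as well, and neither gene passed the test. On both strands, 10.16% of 32851 mouse promoter windows of this length hold the core and 6.02% hold the E-box. A match describes the letters and shows no bound factor.

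Among the CREB/ATF genes, 3 of 16 tested genes (18.8%) changed, close to the 17% of all tested genes. The cyclic AMP factors Creb1, Crem and Atf1 did not pass. Atf3, an early stress gene whose protein mostly represses, had -0.88, -0.39, -0.64, -0.81 and -0.53 in Fra-1hep mice 1 to 5 and -0.34 in the pool. All arrays were below 0, mice 1 and 4 were the lowest, and the counted samples averaged -0.68 ± 0.19 (SD, n = 4). The fitted ratio was -0.51 (SE 0.09, limma adjusted p = 0.00754), or 0.701 times wild type. With the scanner software's processed signals the ratio was -0.92 and no longer passed (adjusted p = 0.0721). Creb3l2, a factor held in the endoplasmic reticulum membrane and best known from secretory cartilage cells, had 0.48, 0.72, 0.58, 0.21 and 0.13 in the mice and 0.42 in the pool. It was high in mice 1 to 3 and close to wild type in mouse 5 (fitted 0.39, SE 0.10, limma adjusted p = 0.0395), and it lost the call without mouse 1 (0.37, adjusted p = 0.0697).

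Creb5, a CRE-binding relative of ATF2, passed the test, but the mouse arrays and the dye-swapped array differed in sign. Its only probe was the brightest of the tested members. The mean log2 intensity was 15.46, against 14.74 for the next brightest, Creb3l3. Creb5 had 0.96, 0.81, 0.98, 1.11 and 0.91 in the 5 mice and -0.47 in the pool. The fit split this into a genotype ratio of 0.25 (SE 0.07, limma adjusted p = 0.046) and a dye constant of 0.72, and without the dye-swapped array the ratio was 0.97. Its call was also lost when mouse 1, 3, 4 or 5 was left out (highest adjusted p = 0.0778).

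The Atf3 promoter is shown because Atf3 is itself known to be induced by ATF4 through an amino acid response element. The 250 bases before its start (chr1:191183334-191183583, GRCm38.p6, minus strand) hold 1 match to that element (TGATGNAAN, on the opposite strand) at -111 to -103, in capitals, which 3.44% of all promoter windows also hold.
Atf3: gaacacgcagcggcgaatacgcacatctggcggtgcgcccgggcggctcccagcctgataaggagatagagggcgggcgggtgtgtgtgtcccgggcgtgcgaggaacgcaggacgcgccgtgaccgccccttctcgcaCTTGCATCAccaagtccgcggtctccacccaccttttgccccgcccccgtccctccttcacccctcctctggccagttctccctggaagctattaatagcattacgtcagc
ATF4, the amino acid and integrated stress factor, did not pass at the RNA level: its 2 probes had fitted ratios of -0.05 (adjusted p = 0.758) and 0.17 (adjusted p = 0.401). Both probes were above 0 in all 5 mice, from 0.04 to 0.36 at the first and from 0.01 to 0.68 at the second, and below 0 in the pool, at -0.27 and -0.04. On the mouse arrays alone the second probe passed (0.39, adjusted p = 0.028). Its partner CHOP, encoded by Ddit3, was at 0.02 (adjusted p = 0.914). Atf5, an ATF4-related factor of liver, had -0.34 (SE 0.15, adjusted p = 0.186).

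The remaining CREB/ATF genes had no probe past the threshold in the fit of all arrays. The cyclic AMP factors Creb1 (2 probes), Crem (2 of 3 probes tested) and Atf1 (2 probes) had fitted ratios between -0.15 and 0.03. The 4 Atf2 probes ran from -0.11 to 0.16 and differed in sign, as did those of Atf1 and Atf4. On the mouse arrays alone 1 Atf2 probe passed (0.22, adjusted p = 0.0337). Factors of the unfolded protein response were also short of the threshold: Xbp1 had -0.14 (adjusted p = 0.487), Atf6 -0.09 and Atf6b 0.14. Creb3l3, the liver factor of iron and lipid genes, had 0.60, 0.17, 0.10, 0.20 and 0.16 in the mice and -0.11 in the pool, with mouse 1 apart from the others (fitted 0.08, adjusted p = 0.639), and it passed on the mouse arrays alone (0.27, adjusted p = 0.0447). Creb3l4 was well above background in Fra-1hep RNA on 3 mouse arrays, where that RNA was in Cy5, and in wild-type RNA on none. Its fitted ratio was 0.10 (SE 0.07, adjusted p = 0.422), with 0.01 in the pool, so no rise was shown.

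The C/EBP genes, which encode liver differentiation and acute phase factors, had 0 of 6 tested probes past the threshold in limma, and 2 had an unadjusted p under 0.05. Cebpa, the factor of mature hepatocytes, had -0.94, -0.41, -0.37, -0.38 and -0.58 in Fra-1hep mice 1 to 5 but 0.00 in the pool. All mice were low and the dye-swapped array was at wild-type level, giving a fitted ratio of -0.29 (SE 0.11, adjusted p = 0.131). On the mouse arrays alone, where genotype and dye cannot be told apart, Cebpa passed (-0.57, adjusted p = 0.00385). Its dye constant in the fit of all arrays was -0.29. Cebpb, induced in the acute phase, had 0.61, -0.14, -0.10, 0.18 and 0.16 in the mice and 0.17 in the pool, with mouse 1 far above mice 2 and 3 (fitted 0.19, SE 0.12, adjusted p = 0.365). Cebpd followed the same order of mice, from -0.09 in mouse 2 to 0.54 in mouse 1. Cebpe, a factor of granulocyte maturation, was at -0.17 (adjusted p = 0.212), beside 10 of 12 neutrophil marker probes that were higher; their part in the Cebpe value was not tested.

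In the NRF group, 1 of 5 tested probes changed. Bach2, a repressor best known from B and T lymphocytes, had -0.75, -0.70, -0.42, -0.72 and -0.33 in Fra-1hep mice 1 to 5 and -0.30 in the pool. All arrays were below 0, with mouse 5 and the pool the nearest to it, and the counted samples averaged -0.59 ± 0.19 (SD, n = 4). The fitted ratio was -0.44 (SE 0.09, limma adjusted p = 0.0143), or 0.735 times wild type. With the scanner software's processed signals it was at -0.78 (adjusted p = 0.0724). Beside it, 2 of 4 tested B cell marker probes fell, Cd79b and Ms4a1, and none was called higher. The list ran from -0.72 to 0.74, with a median of -0.34. Its summed signals were 749 to 1546 in Fra-1hep and 936 to 1143 in wild type, and Ebf1 was not above background. The part of these cells in the Bach2 value was not tested.

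Nfe2l2, which encodes NRF2, was slightly below 0 on all arrays, at -0.28, -0.25, -0.15, -0.25 and -0.18 in the mice and -0.10 in the pool (fitted -0.16, SE 0.06, adjusted p = 0.122). Nfe2l1, a factor of proteasome genes, had -0.46, -0.14, -0.35, -0.33 and -0.35 in the mice and 0.01 in the pool (fitted -0.17, adjusted p = 0.143). Both passed on the mouse arrays alone (-0.23 and -0.35, adjusted p = 0.0151 and 0.00391). Bach1, the haem-sensing repressor at NRF2 sites, had -0.07 (adjusted p = 0.59). Nfe2, a factor of red cell and platelet precursors, varied most between samples, from -0.64 in mouse 1 to 0.49 in mouse 5 (fitted 0.08, SE 0.18). Nfe2l3 was not above background.

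PAR factors are output genes of the liver clock that drive detoxification and haem synthesis, and Nfil3 encodes their repressor at D-boxes. Hlf was higher, with 0.55, 0.28, 0.30, 0.61 and 0.15 in Fra-1hep mice 1 to 5 and 0.28 in the pool. All arrays were above 0 and mouse 5 was the nearest to it. The fitted rise was 0.34 (SE 0.09, limma adjusted p = 0.0489), or 1.27-fold, and it lost its call without mouse 1, 3 or 4 (adjusted p from 0.0524 to 0.0792). Dbp, the best known member, had fitted ratios of -0.10 (adjusted p = 0.593) and -0.31 (adjusted p = 0.0912) at its 2 probes, and Tef had -0.09 (adjusted p = 0.391). The second Dbp probe passed on the mouse arrays alone (-0.34, adjusted p = 0.0255). Nfil3 had 0.62, 0.21, 0.17, -0.11 and -0.01 in the mice and -0.06 in the pool, with mouse 1 alone well above 0. The labels give no time of day for the tissue.

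The Hlf promoter is shown because it holds a full CRE next to the start, and so do promoters of 2 other changed members, Creb5 and Maff. Those were the 3 of 40 member genes with a matched promoter that held this motif. By window, it was in 3 of 54 member promoters (5.56%), against 1.55% of all windows. It was singled out from the searched motifs with the calls known. The E-box was in 10 of 54 member promoters (18.52%), against 6.02% of all windows. By gene, it was in 9 of 40 members and in 5 of the 10 changed ones with a matched promoter. A share by gene was not counted over all promoters, and this motif too was looked at with the calls known. The calls of Hlf and Maff held in 9 of 19 alternatives and that of Creb5 in 10. The 250 bases before the Hlf start (chr11:90390918-90391167, GRCm38.p6, minus strand) carry the CRE at -9 to -2, in capitals.
Hlf: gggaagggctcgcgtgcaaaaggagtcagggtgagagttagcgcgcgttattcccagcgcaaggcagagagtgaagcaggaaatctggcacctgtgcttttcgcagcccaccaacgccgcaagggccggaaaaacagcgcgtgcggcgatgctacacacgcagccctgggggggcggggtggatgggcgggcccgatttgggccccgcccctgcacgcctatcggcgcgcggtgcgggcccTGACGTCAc
By the fit, Hlf and Creb5 were higher and Maff was lower, so the CRE did not go with 1 direction. The Creb5 value in the pool was -0.47. The D-box (TTANGTAA) was in 1 member gene, which was not among the changed ones, and the TRE in 3, of which 1 had changed.

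**Figure D2:**
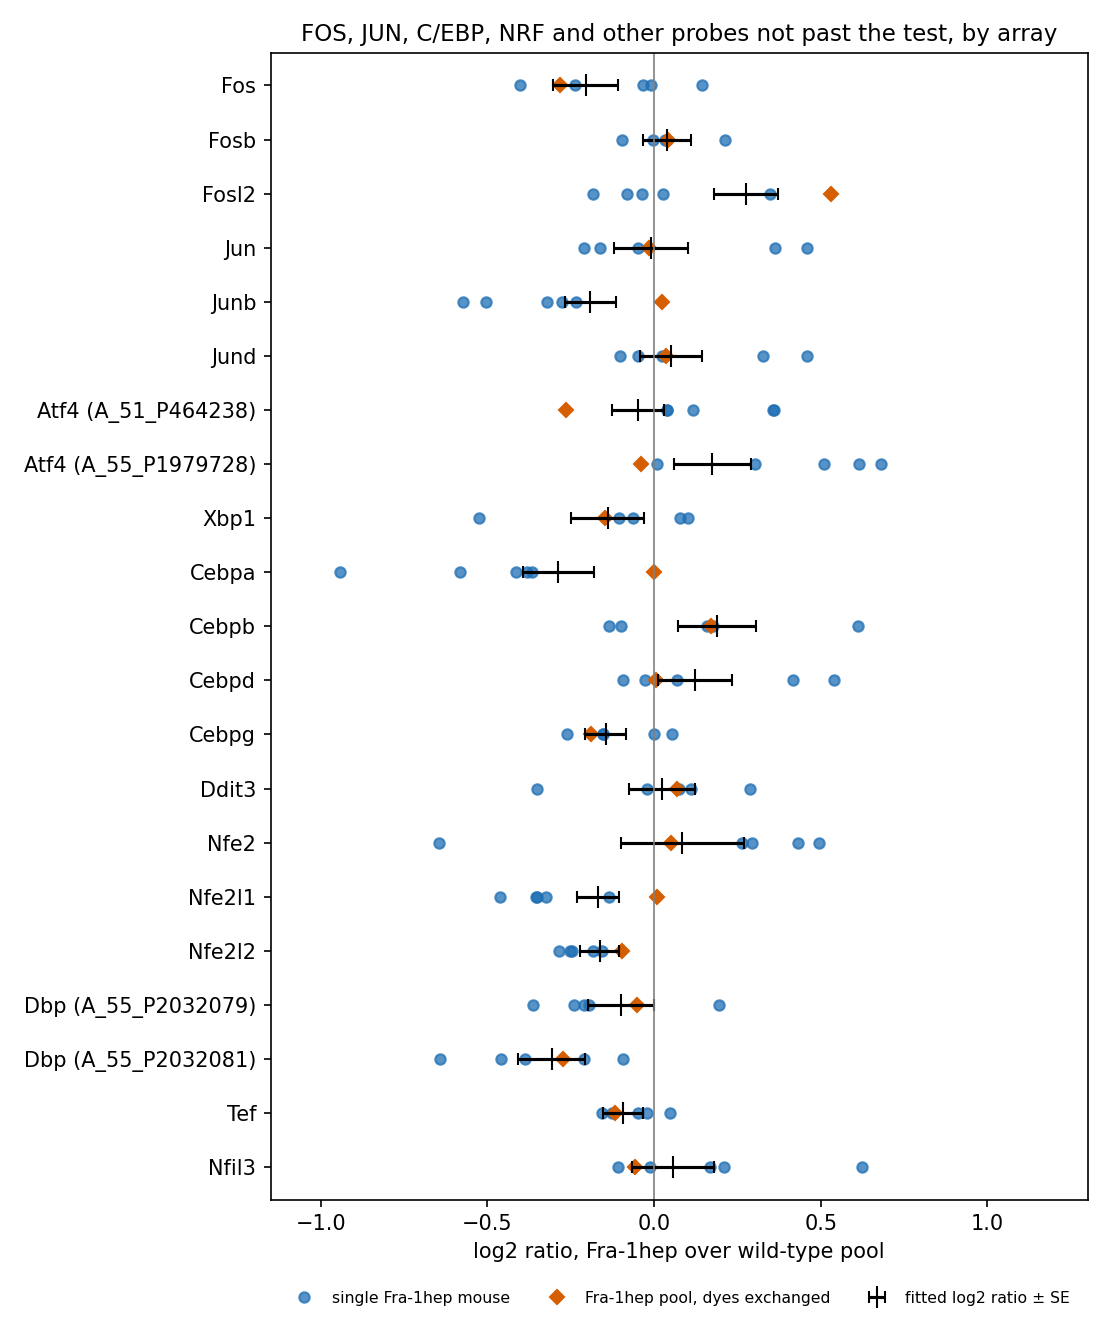
Log2 ratio of Fra-1hep over wild type (horizontal axis) for members that did not pass the test, with circles for the 5 single Fra-1hep mice, a diamond for the Fra-1hep pool with dyes exchanged, and a black mark for the fitted ratio with its SE. Cebpa and Junb have all mice below 0 and the pool at 0.00 and 0.02, while Jun and Jund have mice 2 and 3 above the others.

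Set side by side, the number of changed probes among those tested ran as follows. MAF had 4 of 7, AP-1 had 3 of 10 (all Batf genes), CREB/ATF 3 of 23, NRF 1 of 5, PAR 1 of 5 and C/EBP 0 of 6, against 11.6% of all tested probes and 14.9% of those with a symbol. The CREB/ATF share of 13.0% was near that of all probes. Group medians were -0.23 for MAF, -0.16 for NRF, -0.10 for AP-1, -0.09 for PAR, -0.06 for C/EBP and 0.03 for CREB/ATF. These are descriptions of few probes, and Mafg gives 3 of the 7 MAF probes. With median centring in place of loess the PAR and C/EBP medians turned to 0.07 and 0.04.

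**Figure D3:**
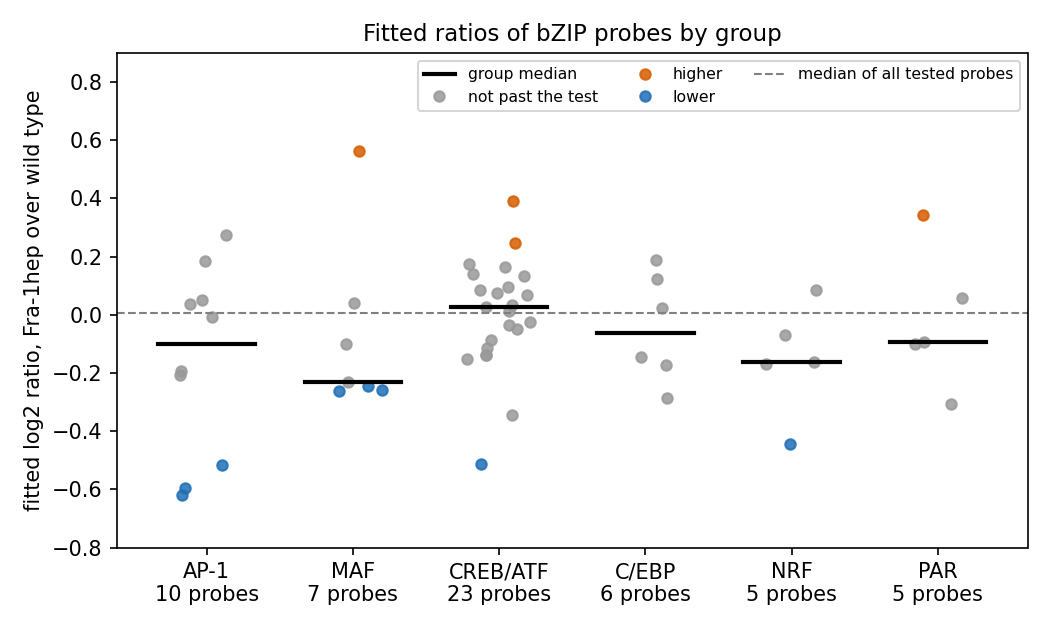
Fitted log2 ratio of Fra-1hep over wild type (vertical axis) for each tested probe of the 6 bZIP groups, with colours for probes that were higher, lower or not past the test, a black bar for the group median and a dashed line for the median of all tested probes (0.01). The Batf genes and Atf3 are at the bottom, and Mafk at 0.56 is the highest point.

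The dye-swapped array bears on many of these results. On 8 of 56 tested member probes (14.3%) all 5 mice lay on 1 side of 0 and the pool on the other, against 13.8% of all tested probes. Of these 8, 6 were CREB/ATF probes. When the dye-swapped array was left out, 21 member probes passed (7 higher, 14 lower) instead of 12, and over all probes 7585 instead of 3480. Without that array a dye difference counts as a genotype difference, so these added passes cannot be told apart from dye. The arrays lay on 3 slides. For all 12 probes called changed from these same arrays, the mice of each slide had the fitted direction. Mafk, for example, averaged 0.65 in the mice of slide 1, 0.58 on slide 2 and 0.32 on slide 3, and Batf averaged -0.81, -0.65 and -0.39. With slide as a fixed block, 7 of the 12 passed.

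**Figure D4:**
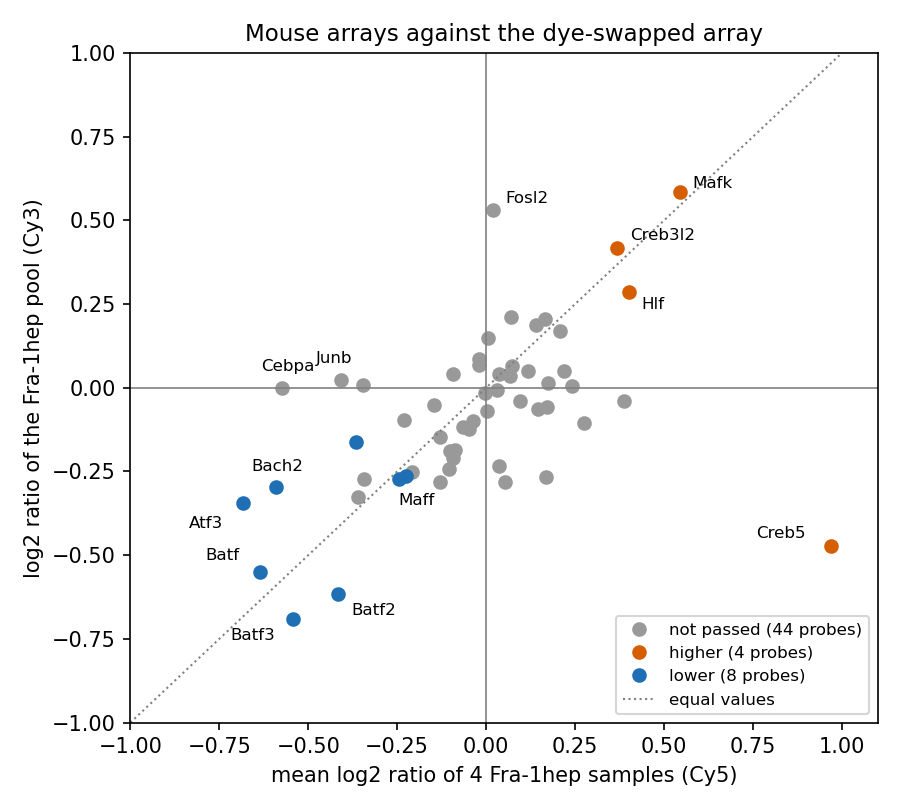
Log2 ratio of the Fra-1hep pool in Cy3 (vertical axis) against the mean of the 4 Fra-1hep samples in Cy5 (horizontal axis) for the 56 tested bZIP probes, coloured by call, with a dotted line of equal values. Creb5 lies at 0.97 across and -0.47 up, on the opposite side from Mafk at 0.54 and 0.58.

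Genes known as targets of these factors were counted in the same fit, where 11.6% of all tested probes changed. Over all probes 47.8% of the changed ones were higher, against 74.3% with median centring. ATF4 and CHOP targets had 5 of 32 tested probes higher and 2 lower (median 0.05). Asns, asparagine synthetase and a textbook ATF4 target, had a fitted ratio of 5.42 (SE 0.14, limma adjusted p = 7.06e-07), the highest of all tested probes. Vldlr, a lipoprotein receptor, had 1.86 and 0.93 at its 2 probes and Gpt2, an aminotransferase, 0.80. Gdf15, a stress hormone, fell by 1.13 on the log2 scale. The ATF4 targets Trib3 (-0.17), Chac1 (0.04) and Phgdh (0.06 and 0.09) did not pass, and Slc7a11 and Stc2 were not above background. They were named after their values were seen. ATF6 and XBP1 targets of the unfolded protein response had 2 of 26 probes higher and 5 lower (median -0.07). Dnajb9 had 0.42, Sec24d 0.38, Calr -0.30 and Pdia6 -0.41 and -0.37.

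NRF2 and small MAF targets split, with 7 of 36 probes higher and 8 lower (median -0.06). The glutathione transferases Gsta2 (1.21), Gsta1 (1.14), Gstp1 (0.78 and 0.76) and Gstm3 (0.70 at 1 of 2 probes) were higher. Among the lower genes were Aox1, an aldehyde oxidase (-0.58), and the transferase Gsta4 (-0.36). The 3 probes of Me1, malic enzyme, had -1.06 to -1.11 and did not pass. Hmox1, the haem-degrading enzyme that BACH1 represses, was lower at both probes (-0.55 and -0.46), and Nqo1, a standard NRF2 target, did not pass (0.15). Aox1, Gsta4, Me1, Hmox1 and Nqo1 were named after their values were seen. The NRF2 inhibitor list, with Keap1, had 0 of 11 probes past the threshold in limma, and 1 had an unadjusted p under 0.05. AP-1 targets known from other tissues had 2 of 15 probes higher and 3 lower (median -0.10). Spp1, which encodes osteopontin and also stands in the cholangiocyte marker list, rose by 1.04. Ccnd1 (cyclin D1, -1.20), Ccl2 (a monocyte chemokine, -0.84) and Mgp (matrix Gla protein, -0.59) fell. Of 26 probes for AP-1 kinases and phosphatases 3 changed: Dusp1 0.72, Dusp2 -0.81 and Dusp6 -0.71. That share of 11.5% was near the 11.6% of all tested probes.

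CREB and CREB3L3 targets of liver had 7 of 26 probes higher and 2 lower (median 0.12). Pck1 (1.19), a key enzyme of gluconeogenesis, Cidec (1.68 and 1.11), a lipid droplet protein, and Apoa4 (1.16) were higher, and Hamp (-2.50), which encodes the iron hormone hepcidin, was lower. C/EBP targets had 2 of 22 probes higher and 9 lower (median -0.32). The acute phase genes Saa2 (-2.36) and Saa3 (-1.89) were lower, while the gluconeogenic genes Pck1 and G6pc (1.16), which stand in both lists, were higher. Clock and PAR target genes had 1 of 23 probes higher (Cry2, 0.26) and 2 lower, both of the nuclear receptor Nr1i3 (-0.65 and -0.58). Their changed share of 13.0% was near the 11.6% of all tested probes.

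**Figure D5:**
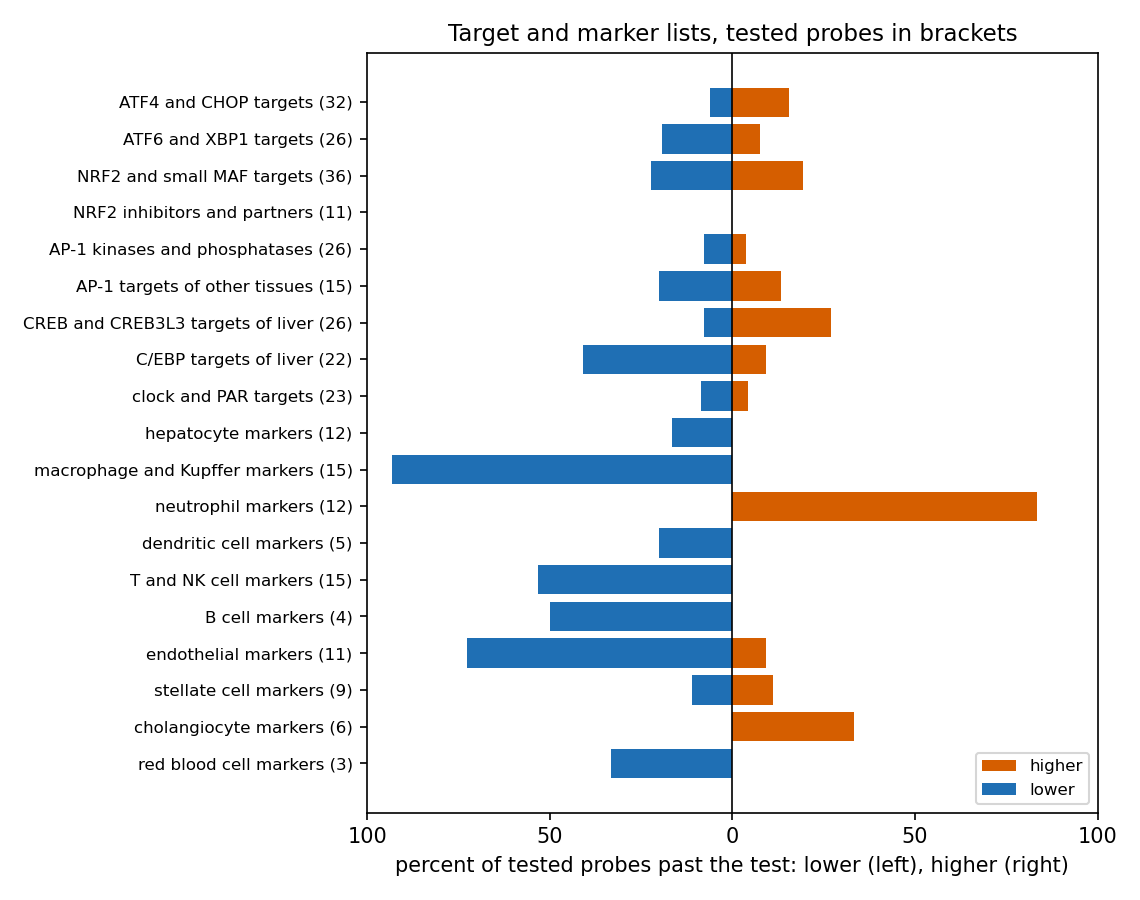
Percent of tested probes that were lower (bars to the left) or higher (bars to the right) in Fra-1hep for each list of target genes and cell markers, with the number of tested probes in brackets. Macrophage and endothelial markers extend mostly to the left, neutrophil markers to the right.

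Other cell markers were as follows. Of 11 endothelial probes, 8 fell and 1 rose (median -0.43), with sums of 14630 to 19732 in Fra-1hep and 23636 to 24984 in wild type. Of 6 cholangiocyte probes 2 rose (median 0.20), with Spp1 among them. Their sums were 1471 to 1799 in Fra-1hep and 1074 to 1156 in wild type. Of 9 stellate cell probes 1 rose and 1 fell (median -0.06). The stellate sums were 19576 to 22368 in Fra-1hep and 16399 to 18712 in wild type. Of 3 red blood cell probes 1 fell (median -0.17). Those sums were 28404 to 41957 in Fra-1hep and 39835 to 46956 in wild type. The neutrophil sums were 38392 to 90649 in Fra-1hep and 24888 to 30459 in wild type. The part of these cells in the bZIP values was not tested.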

How the data were processed

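Liver RNA of Fra-1hep mice and a wild-type pool was compared on 6 two-colour Agilent arrays of 62976 spots. Spots were read by the authors in Agilent Feature Extraction (version 10.7 per the submitters' processing notes and 10.7.3.1 per the file headers). Deposited are, for each spot, unnormalised median spot and background intensity, processed signals and a log10 ratio, which was not used. A deposited series matrix by the authors gives log2 ratios of those processed signals, all as Fra-1hep over wild type. Its columns are not centred (medians -0.18 to 0.06).

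Here, background was corrected by normexp (offset 50) and ratios were normalised by loess within arrays in limma 3.58.1 (R 4.3.3, with version 1.17.8 of the data.table package). Control spots and outlier spots (190 to 301 per array) were left out, and spots of a probe were averaged. The offset pulls dim ratios towards 0. 0 spots were saturated. A single symbol was found through the accession for 26056 of 55681 probes, from the GRCm38.p6 RefSeq list; the other 29625 had none or several. Promoter sequences are RefSeq's, of that build. Different probes of a gene were kept apart. Tested were the 30110 probes well above background on at least 3 of 5 mouse arrays in Fra-1hep or 3 of 6 arrays in wild type. lmFit and eBayes fitted genotype and a dye constant (3 residual and 5.15 prior degrees of freedom), 2-sided. The code was tested on simulated data. The number of arrays limits precision.

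The series text speaks of 6 single mice. The labels, which were followed, give 5 and an array of pools. Members, gene lists and tests were chosen with earlier results of these data known. Named are all FOS and JUN genes, each changed member, well known liver factors, members never above background, and at most 4 genes per list, those with the largest ratio among changed genes of 1 direction on all arrays; exceptions are stated. The list of further bZIP genes is not reported here. Alternatives covered background, normalisation, input values, filter, dye term, slide, variance model, probes per gene and each mouse left out.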

Additional observations from a re-analysis of the deposited data

Results flagged for a closer look

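Over the 56 tested bZIP probes, the highest or lowest of the 4 Fra-1hep samples stood apart from the other 3 by Dixon's gap test in 2 cases, where chance gives about 1 in 20. Mafk was at 0.32 in mouse 5, while the other samples lay between 0.60 and 0.65, with a gap of 0.851 of the whole range. Creb3l3 was at 0.60 in mouse 1, against 0.14 to 0.20, with a gap of 0.854 of the range.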

How the results depend on the processing

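Depth is set by the arrays: dim probes carry more error, and the wild-type pool and the dye-swapped array have no replicate of their own. Batf, Batf2, Batf3 and Mafk passed in all 19 alternatives, Atf3 and Bach2 in 17, Creb3l2 in 14, the 2 changed Mafg probes in 12 and 10 of 18, Creb5 in 10, and Maff and Hlf in 9. None of these 12 changed sign. Of the 44 member probes that did not pass, 34 passed in no alternative and 10 in 1 or more, all in the direction of their main value. Those passes came only without the dye term or on the mouse arrays alone, in fits that hold no dye constant. The cause of these differences was not tested.

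Of the 56 tested member probes, 12 passed as reported, against 6 with normexp offset 10 (1 higher, 5 lower), 4 with the scanner software's processed signals (1 higher, 3 lower) and 4 with the authors' deposited series table, 7 with slide as a fixed block, 19 without the dye term (4 higher, 15 lower) and 21 on the mouse arrays alone. Leaving out 1 mouse gave 7 to 11, with 7 without mouse 1 and 7 without mouse 4. Over all tested probes 3480 passed, against 1617 with processed signals, 1624 with the authors' deposited table, 5898 without the dye term, 7585 on the mouse arrays alone and 2913 to 3304 with 1 mouse left out. Median centring moved the median of all tested probes to 0.08 and the share of changed probes that were higher to 74.3%, against 47.8% with loess. Of the member probes 9 then passed (4 higher, 5 lower). It moved the group medians to -0.0768 (MAF), 0.0897 (CREB/ATF), 0.0373 (C/EBP), -0.016 (NRF) and 0.0693 (PAR). On the mouse arrays alone CREB/ATF was at 0.0517. With 1 probe per gene MAF was at -0.10, CREB/ATF at 0.0484 and PAR at -0.0175. No paired analysis was possible because the wild-type side is 1 pool without replicate numbers.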
